A study of Mus musculus with 6 samples.

Results

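The transcription regulators Hlf, Mecom, Prdm16, Mycn, Myc, Bmi1, Mllt3, Hhex and Nkx2-3 were followed in mouse hematopoietic stem cells that carry or lack the chemokine receptor CCR2. These 9 genes were taken by symbol out of 22180 measured genes, because each is known from work on the maintenance of blood stem cells or, for Nkx2-3, is a homeobox gene grouped with them. Total RNA from sorted stem cells of C57BL/6J mice was amplified from 5 ng and hybridised to 6 arrays. The CCR2-negative group and the CCR2-positive group each held 3 pools, and every pool combined bone marrow from 20 mice. Both groups shared strain, cell type label and protocol, and no agent or allele is named for either. Neither the further markers of the sort nor the age or sex of the animals is stated in the sources used here.

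A blood stem cell self-renews when at least 1 daughter of a division keeps the stem cell state. Transcription factors hold that state by keeping stem cell genes active, and chromatin regulators such as the Polycomb complexes keep cell cycle inhibitors and lineage genes silent. Myc works against retention in the marrow niche and towards growth and differentiation, so its level in stem cells is known to matter in both directions.

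Levels are the deposited log2 values, so that a step of 1 is a doubling. A difference is the CCR2-positive mean minus the CCR2-negative mean, written ± its standard error from limma, a linear model whose variances are shared across genes. Adjusted p-values are Benjamini-Hochberg values over all genes with a threshold of 0.05. No gene passed it (0 of 22180, a background of 0%), while 2716 genes, or 12.2%, had an unadjusted p under 0.05. The Ccr2 transcript itself differed by 0.79 ± 0.24 (limma adjusted p = 0.274), and its pools overlapped. Kit, the receptor of stem cell factor, had levels of 9.67 to 10.25 over the 6 pools and Procr, a surface marker of stem cells, 6.93 to 7.49. Both were lower in every CCR2-positive pool than in any CCR2-negative pool. Kit differed by -0.32 ± 0.13 (limma adjusted p = 0.365) and Procr by -0.37 ± 0.13 (limma adjusted p = 0.304). No detection calls were used, so neither presence nor absence of a transcript was called. In these bulk pools, fewer cells of a type and less RNA per cell cannot be told apart. The labels do not say whether pools of the groups came from separate mice, and p-values measure the spread between these pools.

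All 9 factors had a lower mean in the CCR2-positive pools. Their median difference was -0.21, whereas 44.0% of all genes were lower and the median over all genes was 0.03. In a fit of the 11090 genes at or above the median level, the median was -0.03. There, 1123 lower and 401 higher genes had an unadjusted limma p under 0.05. For the 8 factors in that fit the median was -0.30, and 3 had such a p. None of the 9 passed the adjusted threshold. Hlf, Mecom and Hhex had an unadjusted limma p under 0.05 (3 of 9, against 6.61% of all genes in that direction). For the same 3 genes every CCR2-positive pool lay below every CCR2-negative pool, as did 7.88% of all genes. The factors were chosen with earlier results of these data known, so these shares are a description. The differences of Mycn, Mllt3, Bmi1, Myc, Nkx2-3 and Prdm16 had 95% intervals that included 0, and their pools overlapped. Without CCR2-positive replicate 2, 7 of the 9 were lower.

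**Figure D1:**
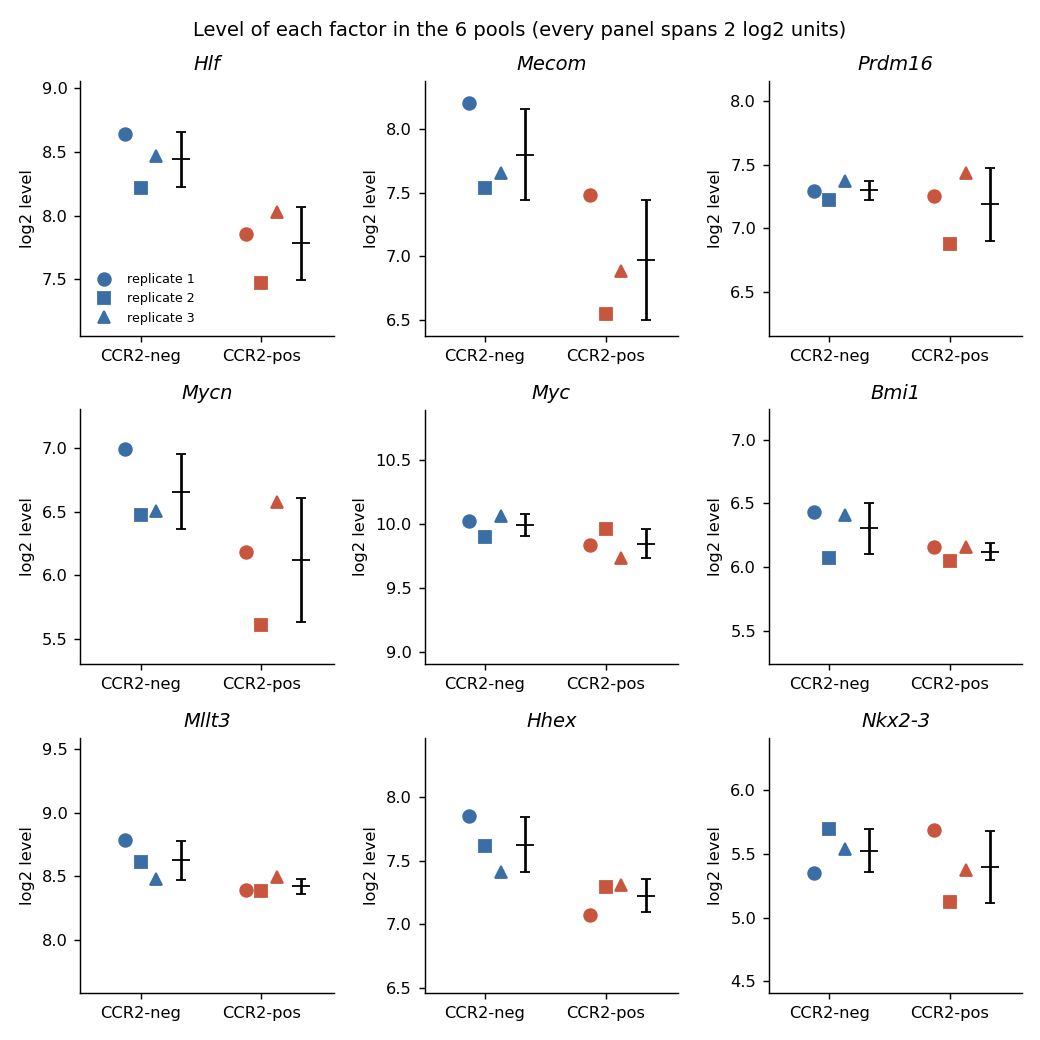
Log2 level of each of the 9 factors in the 3 CCR2-negative pools (blue) and the 3 CCR2-positive pools (red), with 1 symbol per replicate number and the mean ± SD in black; every panel spans 2 log2 units. The groups are apart for Hlf, Mecom and Hhex and overlap for the other 6, and CCR2-positive replicate 2 is the lowest pool in 7 of the 9 panels.

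Hlf encodes a basic leucine zipper protein of the PAR family that marks primitive stem cells and supports their quiescence. Its levels were 8.64, 8.21 and 8.47 in CCR2-negative replicates 1, 2 and 3 and 7.85, 7.47 and 8.03 in the CCR2-positive pools. The lowest CCR2-negative pool and the highest CCR2-positive pool were 0.19 apart. The difference was -0.66 ± 0.17, or 1.58-fold (95% interval -1.05 to -0.27). The unadjusted p of 0.00404 in limma became an adjusted p of 0.221. With 1 pool left out it ranged from -0.50 (without CCR2-positive replicate 2) to -0.78 (without CCR2-positive replicate 3). Its relatives of the PAR family moved less. Tef levels ran from 5.02 to 5.13 in CCR2-negative and from 5.20 to 5.47 in CCR2-positive pools, a difference of 0.25 ± 0.11, and Dbp differed by -0.12 ± 0.10. Of the 3 genes in the list of Hlf relatives, 0 had an unadjusted limma p under 0.05.

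The promoter of Hlf is shown because this factor had the smallest p of the 9. The 250 bases before its RefSeq start lie at chr11:90390918-90391167 on the minus strand of GRCm38.p6, and RefSeq promoter windows were matched for 8 of the 9 factors. Capitals mark matches on either strand to 8 motifs. The E-box, which Myc and Max bind, was searched as CACGTG. The PAR bZIP site was TTACGTAA and the cAMP response element was TGACGTCA, and these first 3 motifs read the same on both strands. GATA factors were represented by AGATAA, ETS factors by CCGGAAG and Meis factors by TGACAG. The GC box was GGGCGG, and the box known as CCAAT was searched by those letters. Matches of the same motif or of different motifs may overlap.
Hlf: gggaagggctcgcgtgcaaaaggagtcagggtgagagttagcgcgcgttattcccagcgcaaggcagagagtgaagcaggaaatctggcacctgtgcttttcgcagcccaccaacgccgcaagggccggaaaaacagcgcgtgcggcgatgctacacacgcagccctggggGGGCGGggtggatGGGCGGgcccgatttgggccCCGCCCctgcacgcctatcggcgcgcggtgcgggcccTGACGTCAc
The Hlf window held a cAMP response element that begins 9 bases before the start, a match present in 1.55% of 32851 RefSeq windows of this length. It also held 3 GC boxes. The PAR bZIP site was found in none of the factors' windows and in 0.113% of all windows. A match describes the letters only.

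Mecom and Prdm16 encode paralogous zinc finger proteins with a PR domain, and loss of either is known to deplete long-term stem cells. Mecom levels were 8.20, 7.54 and 7.65 in CCR2-negative replicates 1, 2 and 3 and 7.48, 6.55 and 6.89 in the CCR2-positive pools. CCR2-positive replicate 1 came within 0.06 of the lowest CCR2-negative pool, and the other CCR2-positive pools lay well below. The difference of -0.83 ± 0.25, or 1.77-fold (95% interval -1.40 to -0.25), was the largest of the 9. The unadjusted p of 0.0101 in limma became an adjusted p of 0.272. It ranged from -0.62 (without CCR2-positive replicate 2) to -1.08 (without CCR2-positive replicate 1). A second probe set of Mecom had levels of 6.55, 6.24 and 6.28 in CCR2-negative and 5.89, 5.45 and 5.94 in CCR2-positive pools. It too was lower in every CCR2-positive pool, by -0.60 ± 0.17 (limma over all probe sets, unadjusted p = 0.0105 and adjusted p = 0.356).

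Prdm16 levels were 7.30, 7.22 and 7.37 in CCR2-negative and 7.25, 6.87 and 7.44 in CCR2-positive pools. CCR2-positive replicate 3 was the highest of all pools and CCR2-positive replicate 2 the lowest, so the groups overlapped. The difference of Prdm16 was -0.11 ± 0.15 (95% interval -0.45 to 0.23), with a limma adjusted p of 0.796. Without CCR2-positive replicate 2 it was 0.05. The other Prdm16 probe set gave -0.18 ± 0.25 (95% interval -0.78 to 0.43), also with overlapping pools. Whether the differences of Mecom and Prdm16 differ from each other was not tested.

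The start regions of Mecom and Prdm16 share a stretch of sequence, which is shown because the genes are paralogs. Their upstream windows lie on the minus strand at chr3:30509760-30510009 and chr4:154636874-154637123 of GRCm38.p6, with the same 8 motifs in capitals.
Mecom: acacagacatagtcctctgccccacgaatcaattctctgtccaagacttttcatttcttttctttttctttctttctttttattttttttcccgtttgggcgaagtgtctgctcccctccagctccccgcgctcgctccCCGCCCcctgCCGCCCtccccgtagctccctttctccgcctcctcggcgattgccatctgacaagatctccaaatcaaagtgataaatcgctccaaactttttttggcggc
Prdm16: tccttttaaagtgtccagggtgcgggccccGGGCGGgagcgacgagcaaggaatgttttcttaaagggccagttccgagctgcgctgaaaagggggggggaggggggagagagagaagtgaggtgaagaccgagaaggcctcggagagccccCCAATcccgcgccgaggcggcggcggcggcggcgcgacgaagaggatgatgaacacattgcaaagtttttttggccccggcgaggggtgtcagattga
The upstream windows held GC boxes in both genes (2 in Mecom and 1 in Prdm16) and a CCAAT box in Prdm16. In the first 50 bases after the starts, both genes carry the 24 bases below, which begin 27 bases into the Mecom transcript and 10 bases into the Prdm16 transcript, counting the start as 1.
Shared run: GCGCATGTGCGAAGGTGTCCAAAC
In Mecom the run reaches the end of the window and may continue beyond it. Among 43 pairs of windows of different factors the longest run shared by any other pair was 12 bases, and no other gene's window in the table held the 24 bases.

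Of 18 other genes of the PR domain family and its corepressor partners, 6 were lower and 12 higher (median 0.06), and 3 had an unadjusted limma p under 0.05. They were Prdm13, higher by 0.31 ± 0.12, Prdm8, higher by 0.26 ± 0.11, and Prdm15, lower by 0.37 ± 0.15. None passed the adjusted threshold. With cyclic loess the list was evenly split, 9 lower of 18, with a median of 0.0047. No gene of the list had an unadjusted limma p under 0.05 when any 1 of the 3 CCR2-negative pools was left out.

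Mycn and Myc encode basic helix-loop-helix factors that bind E-boxes together with Max, and stem cells are known to carry both. Mycn levels were 6.99, 6.47 and 6.50 in CCR2-negative and 6.19, 5.61 and 6.57 in CCR2-positive pools. CCR2-positive replicate 3 lay above 2 CCR2-negative pools, and the other CCR2-positive pools lay below all of them. The difference of Mycn was -0.53 ± 0.24, or 1.45-fold (95% interval -1.09 to 0.02). The unadjusted p of 0.0581 in limma became an adjusted p of 0.422. It was -0.27 without CCR2-positive replicate 2. Myc levels were 10.03, 9.90 and 10.06 in CCR2-negative and 9.84, 9.96 and 9.74 in CCR2-positive pools. The 6 pools spanned 0.32, the narrowest range among the 9 factors, and CCR2-positive replicate 2 lay above CCR2-negative replicate 2. The difference of Myc was -0.15 ± 0.11 (95% interval -0.40 to 0.10; limma adjusted p = 0.610).

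In the network of Myc and Max partners, antagonists and degradation factors, 10 of 17 genes were lower and 7 higher, with a median of -0.04 that turned to 0.0044 without CCR2-negative replicate 1. Skp2, a ubiquitin ligase subunit that acts on Myc, was higher by 0.35 ± 0.11 and Mga, a repressive partner of Max, was lower by 0.37 ± 0.13. These 2 genes had an unadjusted limma p under 0.05 (1 in each direction). Max differed by 0.09 ± 0.12, and the paralog Mycl by 0.02 ± 0.11, which turned negative under each of the 3 other scalings tried. Of 28 growth genes known to be activated by Myc, 17 were higher and 11 lower, with a median of 0.08, and 0 had an unadjusted limma p under 0.05. With cyclic loess 4 higher genes had such a p, and with array weights 3 higher and 1 lower. The median of the list was 0.13 without CCR2-positive replicate 3, where 4 higher and 1 lower gene had such a p. Omission of CCR2-negative replicate 1 gave 0.01, and omission of CCR2-positive replicate 2 gave -0.02. The smallest p belonged to Ppat, an enzyme of purine synthesis (0.24 ± 0.10), Hspd1, a mitochondrial chaperonin (0.26 ± 0.12), and Eif4a1, a translation initiation helicase (-0.80 ± 0.36). Eif4a1 levels were 11.93, 10.53 and 10.76 in CCR2-negative and 9.85, 10.21 and 10.76 in CCR2-positive pools, which overlapped.

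Bmi1 encodes a RING finger subunit of Polycomb repressive complex 1 that represses the Ink4 cell cycle inhibitors and is required for stem cell self-renewal. Its levels were 6.43, 6.07 and 6.41 in CCR2-negative and 6.16, 6.05 and 6.16 in CCR2-positive pools. CCR2-negative replicate 2 lay below 2 CCR2-positive pools, which overlapped with it. The difference of Bmi1 was -0.18 ± 0.12 (95% interval -0.47 to 0.10; limma adjusted p = 0.582). Leaving out CCR2-negative replicate 2 gave -0.30, and leaving out replicate 1 of that group gave -0.12. The promoter of Bmi1, at chr2:18676768-18677017 on the plus strand, is shown because it was the only window of the factors with an E-box, which 6.02% of all windows held.
Bmi1: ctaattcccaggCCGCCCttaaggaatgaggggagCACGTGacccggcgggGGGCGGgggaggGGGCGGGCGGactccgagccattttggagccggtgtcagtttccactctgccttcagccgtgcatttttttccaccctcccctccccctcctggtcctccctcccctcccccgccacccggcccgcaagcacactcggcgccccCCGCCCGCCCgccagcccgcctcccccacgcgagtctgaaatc
This E-box begins 215 bases before the start, and the window held 6 GC box matches besides. Those that begin at 187 and 183 bases overlap, as do those at 43 and 39 bases.

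The other subunits of the complex and its Ink4 targets were uneven. Of 20 genes, 13 were lower and 7 higher, with a median of -0.08 (-0.02 after a second quantile normalization), and 4 lower and 1 higher gene had an unadjusted limma p under 0.05. Pcgf5, a paralog of Bmi1, had levels of 7.06 to 7.37 in CCR2-negative and 6.04 to 6.67 in CCR2-positive pools, lower by 0.77 ± 0.17 (limma adjusted p = 0.183). Phc1, a Polyhomeotic subunit, was lower by 0.61 ± 0.14 and Pcgf3, another Bmi1 paralog, by 0.44 ± 0.12. Pcgf2, the closest paralog of Bmi1, differed by -0.06 ± 0.21. The Bmi1 target Cdkn2a, which encodes cell cycle inhibitors, had levels of 5.63 to 5.87 in CCR2-negative and 5.87 to 6.11 in CCR2-positive pools, a difference of 0.26 ± 0.11 (limma adjusted p = 0.412). Cdkn2b, the neighbouring inhibitor gene, differed by 0.12 ± 0.11.

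Mllt3 encodes a chromatin reader of the super elongation complex that keeps stem cell genes transcribed in culture. Its levels were 8.79, 8.61 and 8.48 in CCR2-negative and 8.39, 8.38 and 8.49 in CCR2-positive pools. The groups overlapped by the narrowest margin among the 9 factors, since CCR2-positive replicate 3 exceeded CCR2-negative replicate 3 by less than 0.01. The difference of Mllt3 was -0.21 ± 0.11 (95% interval -0.46 to 0.05; limma adjusted p = 0.495), and -0.13 without CCR2-negative replicate 1. Of 16 elongation and Dot1l complex partners, 8 were lower and 8 higher, with a median of -0.02 that turned to 0.04 after a second quantile normalization and to 0.03 with cyclic loess. It was also above 0 without CCR2-positive replicate 3 (0.06) and without CCR2-negative replicate 1 (0.01). The scaffold genes Aff3 (-0.59 ± 0.12, adjusted p = 0.177 by limma) and Aff4 (-0.38 ± 0.10, adjusted p = 0.230) were the 2 with an unadjusted p under 0.05. Their CCR2-positive pools all lay below the CCR2-negative ones. Kmt2a, a histone methyltransferase of the same network, differed by -0.32 ± 0.16, and Mllt1, the paralog of Mllt3, by 0.19 ± 0.12.

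Hhex encodes a homeodomain repressor that is required for lymphoid progenitors and for stem cells under stress. Its levels were 7.85, 7.62 and 7.41 in CCR2-negative and 7.08, 7.29 and 7.31 in CCR2-positive pools. Every CCR2-positive pool was lower, and the nearest pools of the groups were 0.11 apart. The difference of Hhex was -0.40 ± 0.14, or 1.32-fold (95% interval -0.71 to -0.09). The unadjusted p of 0.0171 in limma became an adjusted p of 0.305. With 1 pool left out it lay between -0.29 and -0.51, the values that lacked CCR2-negative replicates 1 and 3. CCR2-positive replicate 1 was the lowest pool for this gene, unlike for Hlf and Mecom, where it was replicate 2.

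The Hhex promoter, at chr19:37434591-37434840 on the plus strand, is shown for comparison with those of Hlf and Mecom, since these 3 genes were separated between the groups.
Hhex: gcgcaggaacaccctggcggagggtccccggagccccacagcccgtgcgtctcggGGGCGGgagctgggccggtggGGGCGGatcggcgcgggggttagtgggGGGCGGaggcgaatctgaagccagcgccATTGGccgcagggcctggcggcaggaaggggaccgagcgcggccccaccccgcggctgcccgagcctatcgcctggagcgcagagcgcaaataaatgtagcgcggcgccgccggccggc
It held 3 GC boxes and a CCAAT box. A GC box was present in 8 of the 10 windows of the factors, against 32.7% of all windows, and a CCAAT box in 6 of 10, against 33.8%. The GATA and ETS motifs were in none of the 10 windows and in 9.99% and 6.91% of all windows. The Meis motif was in 2 of the 10, against 15.9%. The ratio of observed to expected CG dinucleotides had a median of 0.37 over all windows. Among the separated genes it was 0.93 for Hlf, 0.91 for Hhex, and 1.05 and 0.51 for the upstream and the downstream Mecom start. Among the overlapping genes it was 0.99 for Prdm16, 0.715 for Bmi1, 0.626 for Nkx2-3, 0.586 for Mycn, and 0.78 and 0.33 for the upstream and the downstream Mllt3 start. The downstream Mllt3 window was the 1 of these 10 below the median.

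Nkx2-3 encodes a homeodomain factor best known from the blood vessels of spleen and gut. Its levels were 5.35, 5.69 and 5.53 in CCR2-negative and 5.69, 5.13 and 5.38 in CCR2-positive pools. The groups were interleaved, with CCR2-positive replicate 1 close to the highest pool. The difference of Nkx2-3 was -0.13 ± 0.16 (95% interval -0.49 to 0.24; limma adjusted p = 0.771), and it was 0.0063 without CCR2-positive replicate 2. Of 21 other homeobox genes of the NK-like class, 16 were higher and 5 lower, with a median of 0.07. Of all 22180 genes, 12422 were higher. Only 7 of the 21 lay at or above the median level of all genes. Nkx6-1 was the 1 gene of the list with an unadjusted limma p under 0.05 (0.33 ± 0.11). Its levels, 4.07 to 4.61, were low on this scale.

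**Figure D2:**
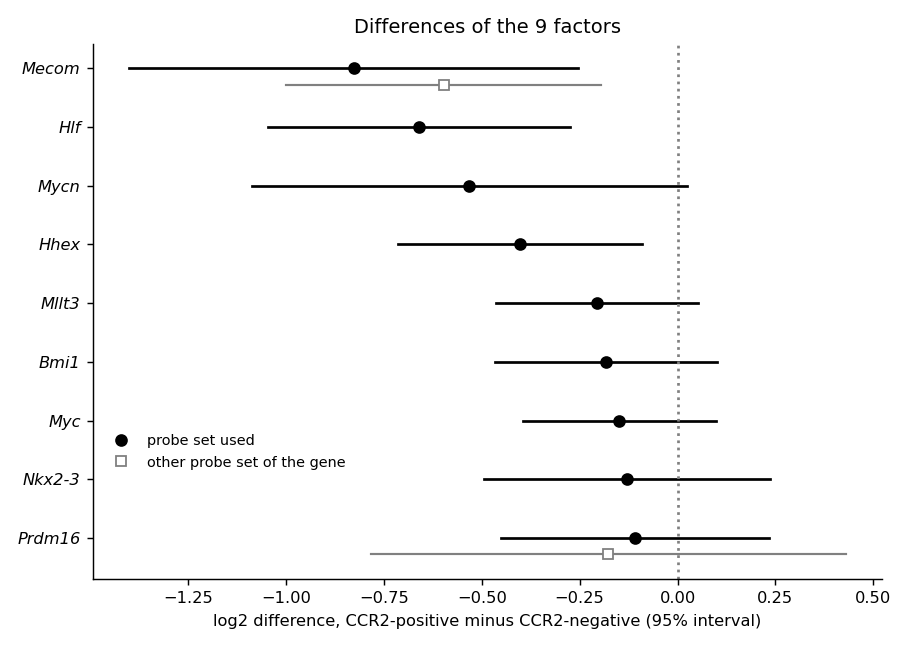
Log2 difference of each factor between CCR2-positive and CCR2-negative pools with its 95% interval from limma, black for the probe set used and grey for a second probe set of Mecom and Prdm16. All 9 points lie below 0, and the intervals of Mecom, Hlf and Hhex do not reach it.

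The factors were then compared with other stem cell transcription factors. Of 29 measured genes 19 were lower and 10 higher, with a median of -0.24, and 11 lower and 2 higher genes had an unadjusted limma p under 0.05. Without CCR2-negative replicate 1 the median was -0.13 and 7 lower genes were under that limit. Hoxb5, a homeobox gene that marks long-term stem cells, had levels of 6.75 to 6.91 in CCR2-negative and 6.25 to 6.47 in CCR2-positive pools. It differed by -0.47 ± 0.11, Etv6, an ETS repressor of stem cells, by -0.51 ± 0.12, and Zfp521, a zinc finger regulator, by -0.55 ± 0.14. None passed the adjusted threshold (smallest adjusted p = 0.183). Like the factors and the other lists, this list was drawn up with earlier results of these data known, so its direction is a description.

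**Figure D3:**
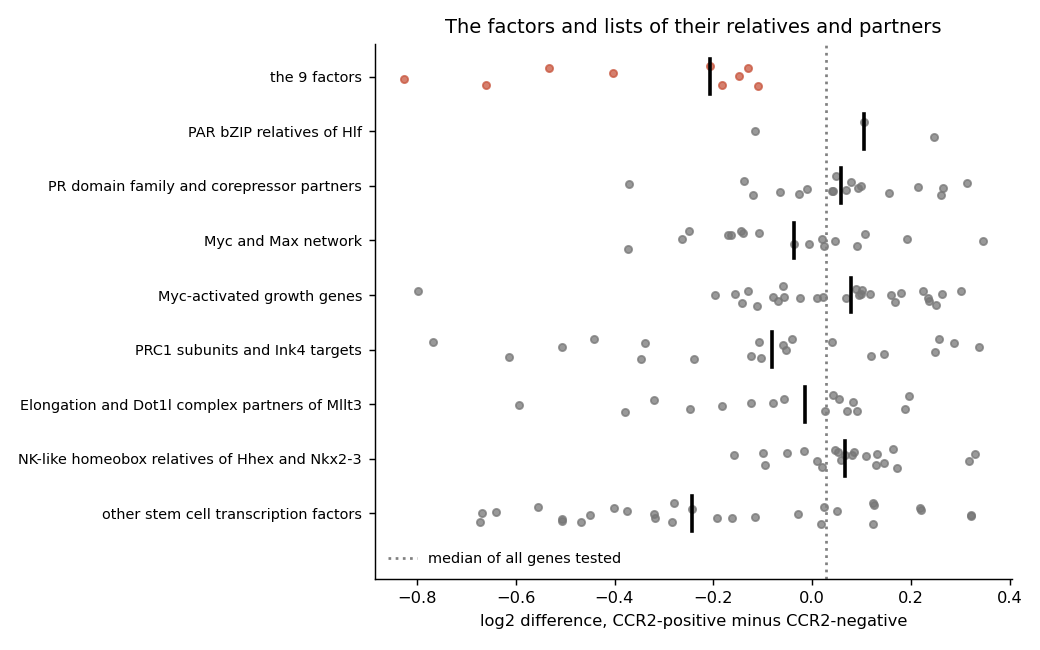
Log2 differences of the 9 factors (red) and of the genes in the 8 lists of their relatives and partners (grey), 1 point per gene, with the median of each list as a black bar and the median of all genes as a dotted line. The 9 factors and the other stem cell transcription factors have medians of -0.21 and -0.24, and the medians of the 7 other lists lie between -0.08 and 0.10.

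The factors varied with each other across the pools. Over the 6 arrays, 33 of 36 pairs of factors had a Pearson r above 0, led by Mllt3 with Hhex (r = 0.952), Hlf with Mycn (r = 0.921) and Hlf with Mecom (r = 0.882). The lowest was Prdm16 with Myc (r = -0.227). These values hold the group difference and the shared arrays and are a description. CCR2-negative replicate 1 was the highest pool for 6 factors (Hlf, Mecom, Mycn, Bmi1, Mllt3 and Hhex), and CCR2-positive replicate 2 the lowest for 7 (all but Myc and Hhex). From its own mean over the 6 pools, Mecom lay 0.82 above in the former pool and at -0.84 in the latter, and Mycn 0.60 above and at -0.78.

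Predicted genes, RIKEN clones and small RNAs were set aside, which left 10195 genes at or above the median level. Those most like Hlf over the 6 arrays were Coro2a, Atp10a and Alcam, each with a Pearson r of 0.994. Alcam encodes an adhesion molecule of stem cells and their niche. The genes most like Mecom were Art4 (r = 0.997), Calcrl (r = 0.992), a receptor subunit for calcitonin-family peptides, and Map1lc3b (r = 0.989), an autophagy gene. For Hhex they were Cwc27 (r = 0.991), Zfp579 (r = 0.985) and Ufl1 (r = 0.984). All 9 were lower in the CCR2-positive pools, with differences of -0.18 to -0.61, as a high r with a gene lower in that group entails. Picked as the highest among 10195 genes over only 6 arrays, these r are a description and were not tested.

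Most erythroid and monocyte markers moved opposite to the factors, and surface markers of stem cells moved in the same direction. The marker lists, too, were drawn up with earlier results of these data known. All 13 measured erythroid markers were higher in CCR2-positive pools, with a median difference of 0.44, and 9 of them had an unadjusted limma p under 0.05, against 5.63% of all genes in that direction. Without CCR2-positive replicate 2 all 13 were still higher and 5 had such a p. The mean level of the list was 7.87 to 8.25 in CCR2-negative and 8.46 to 8.87 in CCR2-positive pools, and Klf1, the defining erythroid factor, had levels of 8.11 to 9.02 and 9.16 to 9.68. Monocyte and macrophage markers were higher in 12 of 13 cases, with mean levels of 5.87 to 6.06 and 6.21 to 6.50. Neutrophil and granule markers were higher in 11 of 14 cases, with overlapping mean levels of 6.07 to 6.74 and 6.24 to 7.28. Without CCR2-positive replicate 2 only 7 of the 14 were higher, and their median turned from 0.21 to -0.03. Surface markers of stem cells were lower in 8 of 8 cases, with mean levels of 7.50 to 7.81 and 6.94 to 7.40. Without CCR2-negative replicate 1, 7 of the 8 were lower, and their median turned from -0.36 to -0.28. There, 2 rather than 4 had an unadjusted limma p under 0.05. Tek, the angiopoietin receptor, and Cd34, which is not restricted to long-term stem cells, had the smallest p of this list. They differed by -0.82 ± 0.16 and -0.83 ± 0.17.

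The other marker lists were mixed. Higher in CCR2-positive pools were 5 of 9 megakaryocyte, 5 of 7 B cell, 5 of 7 T and NK cell, 4 of 9 endothelial and stromal, and 5 of 6 multipotent and lymphoid progenitor markers. The median of the megakaryocyte list was 0.02 and turned negative with median centring (-0.0048), and that of the progenitor list turned from 0.09 to -0.02 without CCR2-positive replicate 2. In CCR2-negative replicate 1 the erythroid mean lay at -0.52 from its mean over the 6 pools and in CCR2-positive replicate 2 it lay 0.49 above. These are the pools where most factors were highest and lowest. The part of the marker transcripts in the differences of the factors was not tested.

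**Figure D4:**
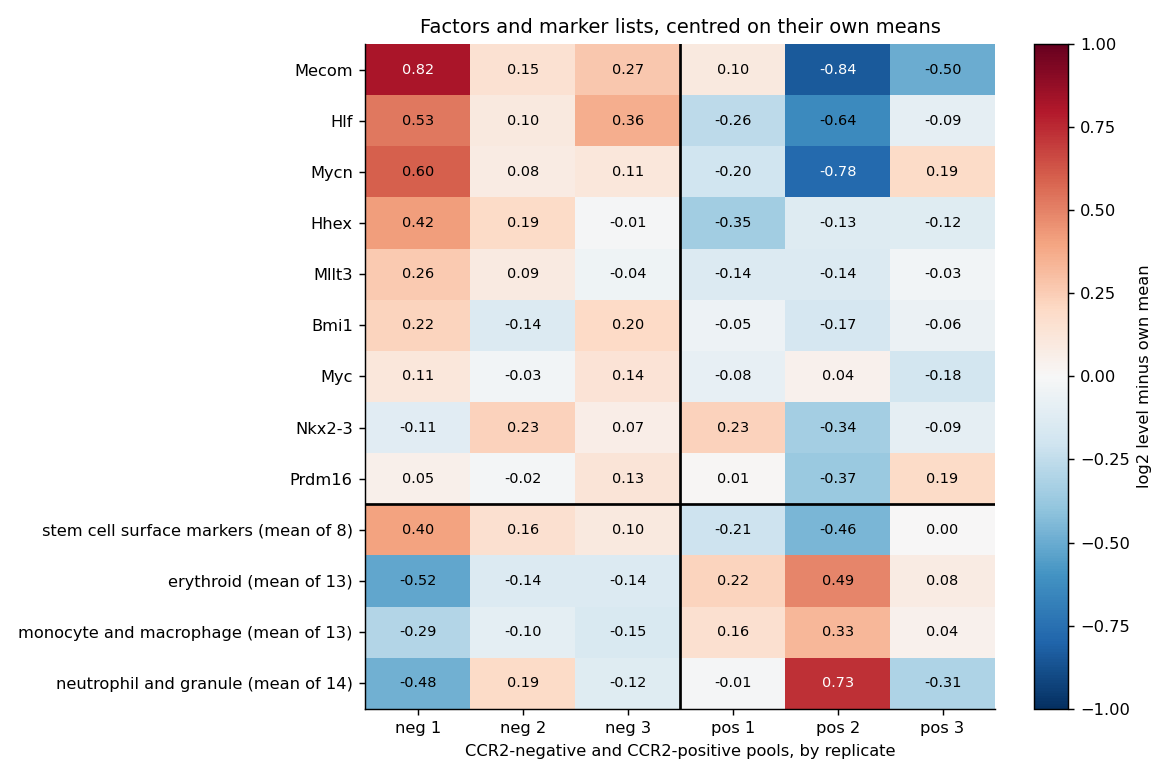
Log2 level of each factor, and the mean level of 4 marker lists, in each pool minus its own mean over the 6 pools, with CCR2-negative pools left of the vertical line. CCR2-negative replicate 1 and CCR2-positive replicate 2 hold the extremes for Mecom, Hlf and Mycn (0.82 and -0.84 for Mecom), with the opposite sign in the erythroid row (-0.52 and 0.49).

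**Figure D5:**
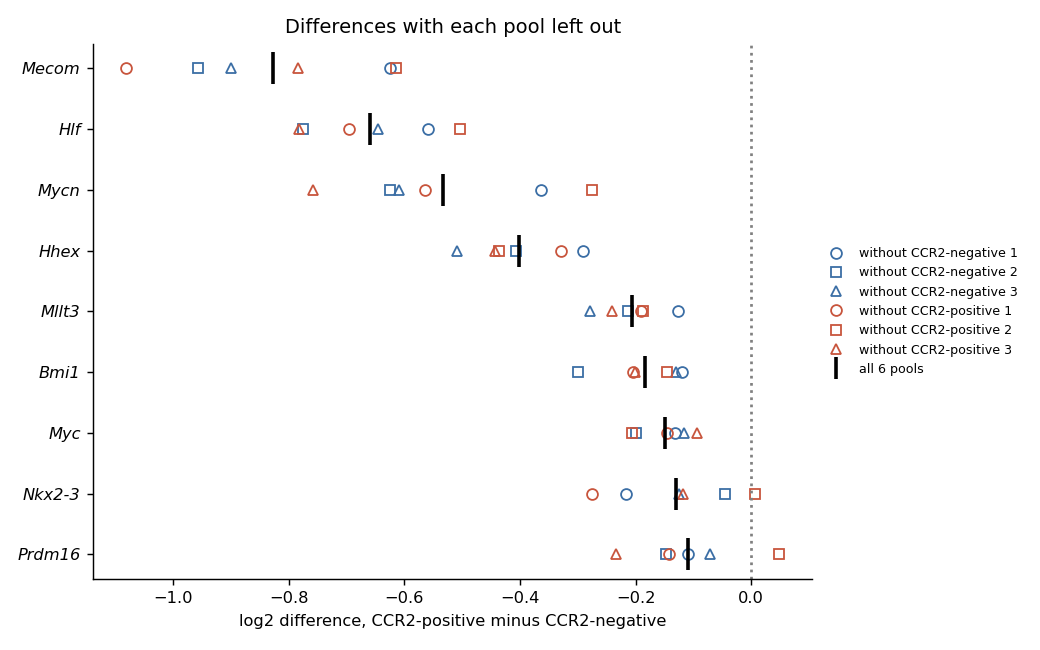
Log2 difference of each factor with all 6 pools (black bar) and with each pool left out in turn (open symbols, blue for CCR2-negative and red for CCR2-positive pools). Prdm16 (0.05) and Nkx2-3 (0.0063) cross 0 without CCR2-positive replicate 2, and the other 7 factors stay below 0 with any 1 pool left out.

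Leaving out single pools thus split the factors. Hlf and Mecom kept an unadjusted limma p under 0.05 with any 1 pool left out. Hhex lost it when replicate 1 of either group was left out. Mycn gained it when CCR2-positive replicate 3 was left out, and also with all 6 pools under median centring, under other eBayes settings and with array weights. Bmi1 gained it in the absence of CCR2-negative replicate 2. Myc moved from -0.15 to -0.09 without CCR2-positive replicate 3, Prdm16 to -0.23 without the same pool, and Nkx2-3 to -0.05 when CCR2-negative replicate 2 was left out. Nkx2-3 was -0.28 when CCR2-positive replicate 1 was left out. No factor passed the adjusted threshold with any pool left out.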

How the data were processed

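The authors deposited 1 table of log2 values from RMA (version not given in the sources used here), per the submitters' processing notes, with 41345 probe sets and 6 arrays. RMA corrects background, equalises arrays and summarises probes, so a change is measured against the rest of the same array. The scale was checked from the range, 2.39 to 13.3. The number of arrays sets the precision, with a median standard error of 0.127. The platform annotation named 1 gene for 23521 probe sets, several for 1814 and none for 16010. The probe set with the highest mean was used for each of 22180 genes. Groups were compared with limma 3.58.1 in R 4.3.3 (lmFit, eBayes, no covariate), tested on simulated data. The factors and lists were chosen with earlier results of these data known; 247 of 270 listed symbols were measured. Up to 3 genes per list with the smallest p, set paralogs, targets and markers, and the 3 genes most like each separated factor were named. Promoters came from the RefSeq table of GRCm38.p6. Deviations of same-numbered pools from their group means had r = 0.035, 0.089 and 0.045. Those of pools with different numbers ran from -0.102 to 0.068, which does not settle whether pools were paired. Alternatives were dim-gene filters, 3 scalings, a replicate block, other eBayes settings, array weights, probe set means and each pool left out.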

Additional observations from a re-analysis of the deposited data

How the results depend on the processing

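The number of factors past the adjusted threshold was 0 under all 15 alternatives. Hlf, Mecom, Mycn, Myc, Bmi1, Mllt3 and Hhex kept their direction in each. Nkx2-3 turned to 0.0014 with array weights and 0.0063 without CCR2-positive replicate 2, and Prdm16 to 0.05 without that pool. With 1 pool left out, Prdm16 ranged from -0.234 to 0.0486 and Nkx2-3 from -0.276 to 0.0063. The causes were not tested. The median difference of the factors was -0.30 to -0.21 with 1 pool left out. Under the other alternatives it was -0.30 to -0.17, the latter after a second quantile normalization. Over all genes, 0 to 2 passed with 1 pool left out. The 2 were Gca and Mcpt8, without CCR2-positive replicate 1, and were named after their values were seen. At an unadjusted limma p under 0.05 there were 1524 genes without those under the median level, where fewer were tested and Nkx2-3 was dropped, and 1921 to 3035 with 1 pool left out. With the replicate block 2935 genes had an unadjusted p under 0.05 and 0 passed, so the block changed no adjusted call. Of the factors, 4 had such a p with the block, Mycn being added to Hlf, Mecom and Hhex. With the block the unadjusted limma p of Hlf went from 0.00404 to 0.00104. That of Mecom went from 0.0101 to 0.000205 (limma adjusted p = 0.139), and that of Hhex from 0.0171 to 0.0323. The smallest limma adjusted p over all genes went from 0.177 to 0.062. The unadjusted limma p of Mycn was 0.0581 as reported, 0.031 with the block, 0.0453 with median centring, 0.0473 with the trend and robust settings of eBayes and 0.0291 with array weights. The split of these genes was 1467 lower and 1249 higher as reported, 1227 and 1463 after a second quantile normalization and 1621 and 1027 with median centring. Scaling moved the median of all genes by less than 0.1. Under a second quantile normalization Hlf moved to -0.59, Mecom to -0.75, Hhex to -0.32 and Prdm16 to -0.03. Myc (-0.17) and Nkx2-3 (-0.16) grew in size there. The unadjusted limma p of Hlf was then 0.0142 and that of Hhex 0.0441. Signal over background is unknown, which limits Nkx2-3 most, the factor left out by the stricter filter.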
